A study of Homo sapiens with 6 samples.

Results

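Transcripts of 9 genes of the complement system were examined in 6 RNA-seq libraries of the human thyroid cell line HTori-3.1. They are C1R, C1S, SERPING1, C3, CFB, CFI, CD46, CD55 and CD59, taken by gene symbol from a table of 22354 loci, in which all 9 are listed. The 3 libraries labelled control (control-labelled below) came from wild type cells, and the 3 labelled BMAL1 knockout (knockout-labelled below) from cells given Cas9 and a guide RNA against BMAL1 with a lentivirus. All the cells had received 2 μM etoposide, a topoisomerase poison that breaks DNA. The treatment label gives 12 h of exposure and the treatment protocol 24 h. Knockout cells were selected with puromycin and picked as single clones, and the labels do not say which clone or clones a library came from. The methods do not say whether control-labelled cells were given virus, Cas9 or puromycin. A difference between clones, or an effect of this handling, therefore cannot be told apart from an effect of the guide. The control-labelled libraries held 26893063, 27029060 and 28513703 counts, and the knockout-labelled libraries 43148059, 29860233 and 43563391. No source states that replicates were separate cultures, so the p-values measure only the spread between these libraries, which may be technical.

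Complement is a cascade of plasma proteins that tags and lyses microbes and damaged cells. In the classical pathway, the proteases C1r and C1s are activated on antibody-bound C1q, and C1 inhibitor, encoded by SERPING1, blocks them. C3 is the central protein on which all routes converge, factor B (CFB) forms the alternative pathway convertase with it, and factor I (CFI) cleaves its active fragment. Host cells carry CD46 as a cofactor of factor I, CD55 to break up convertases and CD59 to block the membrane attack complex. Most plasma complement is made in the liver, and many epithelial cells also make components of it.

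The transcript of the targeted gene was read first. BMAL1 was measured at 11.3, 12.2 and 14.6 CPM in the control-labelled libraries, and at 17.9, 19.7 and 19.4 CPM in the knockout-labelled ones, where CPM are counts scaled to a common library total by TMM. The transcript was thus higher where the label says knockout (log2 fold change 0.58, edgeR adjusted p = 0.0237), a call kept only without control replicate 3 or knockout replicate 1 among the 6 fits that dropped a library (adjusted p from 0.0153 to 0.129). A transcript level does not measure the protein, so these values cannot check whether the knockout label holds. Every difference below is knockout-labelled over control-labelled.

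None of the 8 complement genes that passed the low-count filter changed at an adjusted p under 0.05 in edgeR, and CFI had no reads. Over all 14860 loci tested, 2.37% passed that threshold, 150 higher and 202 lower (175 and 155 when scaled by library size only). Leaving out any single library but knockout replicate 3 moved these counts strongly, from 39 and 65 without control replicate 2 to 323 and 360 without knockout replicate 1. At an unadjusted p under 0.05 there were 2 of the 8, C1R higher and CFB lower, where 16.9% of all loci passed. At a fold change over 2 with an unadjusted p under 0.01 there were 0, against 0.915% of all loci. DESeq2 called 1 of them, C1R, against 4.48% of its loci, and limma-voom called 0, against 2.10%. For 3 of the 8, C1R, CFB and SERPING1, the CPM ranges of the labels did not meet, against 23.3% of all loci. Of the 8 genes, 3 were measured higher and 5 lower, with a median log2 fold change of -0.097, beside 0.0097 over all loci tested.

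**Figure D1:**
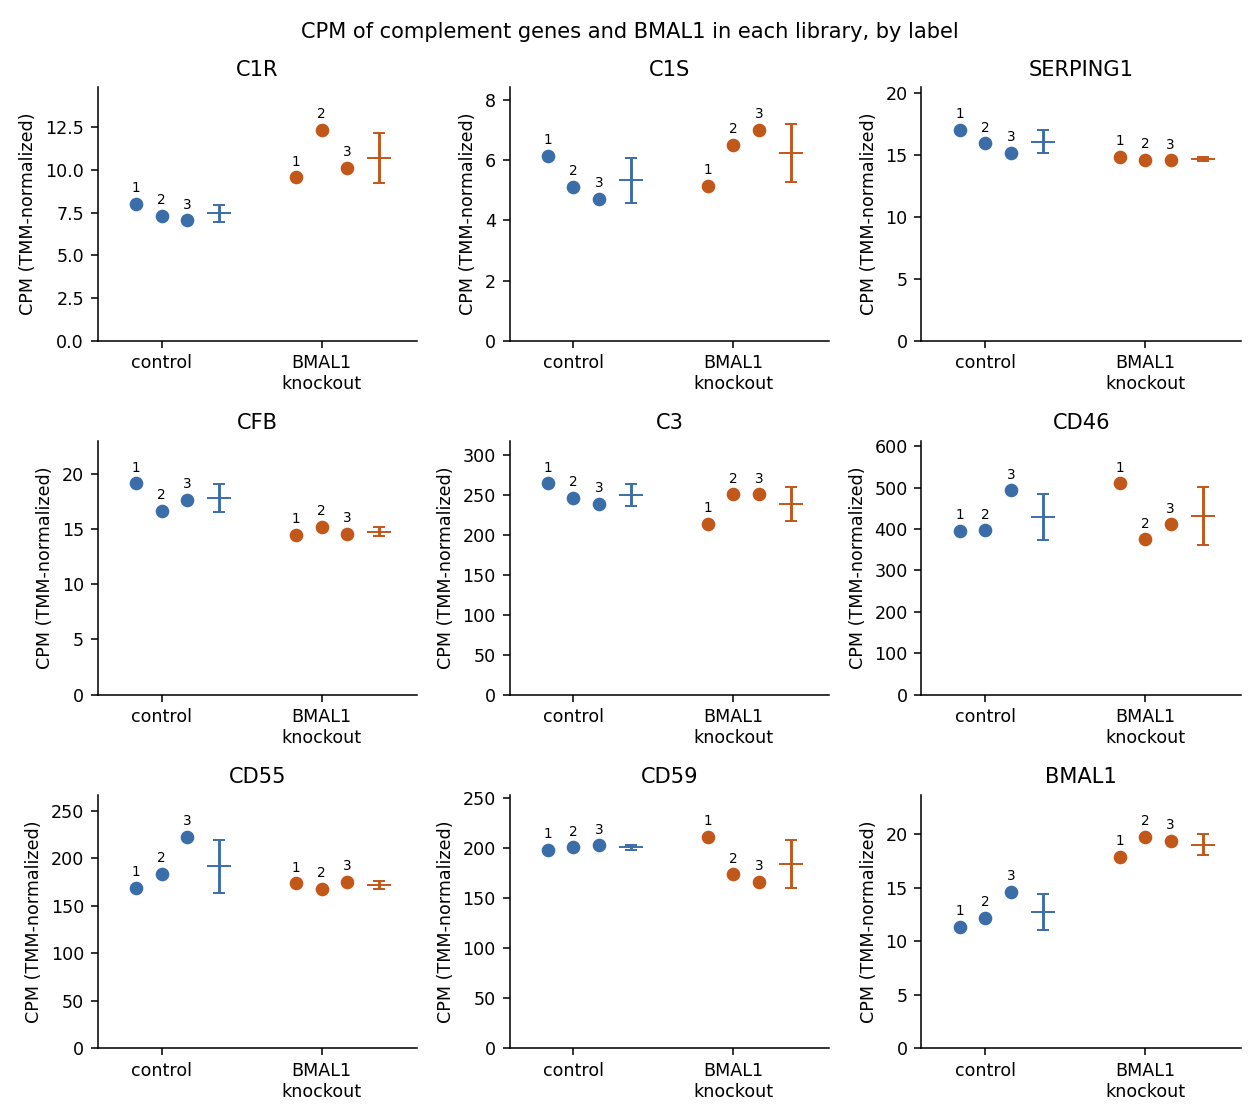
CPM of 8 complement genes and BMAL1 in each library (vertical axes start at 0), by label; numbers are replicates, and the bars at the right of each group show mean and SD (n = 3). The groups separate for C1R, BMAL1, CFB and SERPING1 and overlap in the other 5 panels.

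C1R (ENSG00000159403.18; hg38 chromosome 12, 7080214 to 7092540, reverse strand) encodes the protease that is activated first and has 11 exons in its canonical transcript. It was measured at 8.01, 7.33 and 7.07 CPM in the control-labelled libraries and at 9.58, 12.4 and 10.2 CPM in the knockout-labelled ones. Every knockout-labelled library exceeded every control-labelled one, and knockout replicate 2 was the highest (exact permutation test, two-sided, p = 0.1, the smallest that 3 against 3 libraries allow). The log2 fold change was 0.51 (standard error 0.13, edgeR adjusted p = 0.0678), which is a ratio of 1.42 with a 95% interval from 1.17 to 1.74. The result lies close to the threshold. Its adjusted p was under 0.05 in 3 of 17 alternatives, at 0.0425 with DESeq2, 0.0334 without knockout replicate 1 and 0.0181 with each library's GC trend removed, and over all 17 it ranged from 0.0181 to 0.240. C1R shares 672 exon bases with C1RL on the same strand, so reads there are uncertain; C1RL itself had a log2 fold change of -0.037 (edgeR adjusted p = 0.910).

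C1S (ENSG00000182326.17), the other protease of the complex, is the neighbour of C1R, from 6988259 to 7071032 on the forward strand. It was measured at 6.15, 5.12 and 4.71 CPM in the control-labelled libraries and at 5.15, 6.52 and 7.02 CPM in the knockout-labelled ones. The groups overlapped, since knockout replicate 1 lay among the control libraries. The log2 fold change was 0.22 (95% interval -0.13 to 0.58, edgeR adjusted p = 0.518), an interval that also holds the value of C1R. It was between 0.12 and 0.35 in the fits that dropped a library, highest without knockout replicate 1. C1S shares 229 exon bases with a locus on the same strand, ENSG00000290146, which held 646 counts and had a log2 fold change of -0.30 (edgeR adjusted p = 0.449).

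SERPING1 (ENSG00000149131.17; chromosome 11, 57597387 to 57619171, forward strand) encodes the inhibitor of both proteases. It stood at 17.0, 15.9 and 15.2 CPM in the control-labelled libraries and at 14.8, 14.6 and 14.5 CPM in the knockout-labelled ones. The second group was lower in every library, but by little (log2 fold change -0.13, 95% interval -0.34 to 0.083, edgeR adjusted p = 0.542). Within each library, the level of C1R per kilobase of exon relative to that of SERPING1 was 0.586, 0.573 and 0.581 in the control-labelled libraries and 0.804, 1.06 and 0.869 in the others. The same ratio of C1R to C1S was 1.86, 2.05 and 2.14 in the control-labelled libraries and 2.66, 2.72 and 2.07 in the others, and there the groups overlapped. These ratios are descriptions without a test, and their size depends on the exon lengths used, which are the same for every library.

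CFB (ENSG00000243649.10; chromosome 6, 31945650 to 31952086, forward strand), which encodes the protease of the alternative pathway convertase, was measured at 19.2, 16.7 and 17.7 CPM in the control-labelled libraries and at 14.5, 15.3 and 14.6 CPM in the knockout-labelled ones. Every knockout-labelled library was below every control-labelled one (exact permutation test, two-sided, p = 0.1). The log2 fold change was -0.27 (standard error 0.098, 95% interval -0.49 to -0.059, edgeR adjusted p = 0.180), and no alternative brought the adjusted p under 0.05. An overlapping readthrough locus, ENSG00000244255, covers 42.3% of the exon bases of CFB and is listed at 0, and C2 shares 24 bases. How the counting divided such reads is not stated in the sources used here.

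Of the 9 genes, C1R and CFB had an unadjusted p under 0.05, in opposite directions, so their promoters were read, and that of CFB is shown for the match it held. RefSeq's table of promoters (GRCh38.p14, 300 bases each) held 11 windows for 6 of the 9 genes. C3, C1S and SERPING1 had no entry. Capitals mark a match, on either strand, to the ISRE, an interferon response element searched as GAAA, any 2 bases and GAAA again.
CFB promoter, chr6:31945845-31946144, forward strand: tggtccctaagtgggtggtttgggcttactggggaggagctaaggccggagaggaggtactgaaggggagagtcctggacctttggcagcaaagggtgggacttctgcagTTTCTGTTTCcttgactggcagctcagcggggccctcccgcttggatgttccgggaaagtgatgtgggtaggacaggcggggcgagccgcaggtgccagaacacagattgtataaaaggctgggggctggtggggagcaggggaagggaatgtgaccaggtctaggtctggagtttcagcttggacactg
The match, the only one in the 11 windows, lies at bases 111 to 120 of the CFB window. The C1R windows, from 7091844 to 7092143 and from 7092396 to 7092695, held none. Among 35116 promoters, 3.57% held the ISRE. CACGTG, the E-box that BMAL1 and CLOCK are known to bind, was in 0 of the 11 windows and in 7.26% of all promoters. The kB site, which NF-kB is known to bind, was searched only as GGGA, any base and TTTCC. In that form it was in 0 of the 11 windows and in 0.558% of all promoters, and looser forms were not searched. Some windows of CD46 and of CD59 overlap one another. No binding was measured here, and a match or its absence describes letters only.

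C3 (ENSG00000125730.18; chromosome 19, 6677704 to 6730562, reverse strand, 41 exons) was measured at 265, 247 and 239 CPM in the control-labelled libraries and at 214, 251 and 251 CPM in the knockout-labelled ones. The groups overlapped, and knockout replicate 1 was the lowest of the 6. The log2 fold change was -0.067 (95% interval -0.25 to 0.12, edgeR adjusted p = 0.745), and it was 0.0044 without knockout replicate 1. The 95% interval of the ratio of the groups ran from 0.840 to 1.08, and it covers only the spread between these libraries.

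CFI (ENSG00000205403.15; chromosome 4, 109731008 to 109802150, reverse strand) had 0 counts in all 6 libraries. With 199007509 counts in all, 0 counts allow up to 0.0151 CPM over the 6 libraries, or 0.0689 to 0.112 CPM in a single one, at a limit of 3 counts that covers counting error only. A protein-coding locus that shares 1562 exon bases with CFI, ENSG00000285330, held 3 counts in all. CFI was therefore not detectable at this depth, and no comparison was made.

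The 3 membrane regulators were abundant in every library. CD46 (ENSG00000117335.21; chromosome 1, 207752037 to 207795513, forward strand) was measured at 396, 397 and 494 CPM in the control-labelled libraries and at 511, 375 and 412 CPM in the knockout-labelled ones. The spread within each group was larger than the difference between them (log2 fold change 0.012, 95% interval -0.25 to 0.27, edgeR adjusted p = 0.974), and its sign turned in 4 of 17 alternatives: without control replicate 1 (-0.043), without control replicate 2 (-0.040), without knockout replicate 1 (-0.13) and with the GC trend removed (-0.044).

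CD55 (ENSG00000196352.18; chromosome 1, 207321519 to 207386804, forward strand) was measured at 169, 184 and 222 CPM in the control-labelled libraries and at 174, 168 and 175 CPM in the knockout-labelled ones. Control replicate 3 stood above the other 5 libraries, which spanned 168 to 184 CPM (log2 fold change -0.15, edgeR adjusted p = 0.456). Without control replicate 3 it was -0.031, in a range of -0.24 to -0.031 over the 6 fits that dropped a library.

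CD59 (ENSG00000085063.18; chromosome 11, 33703010 to 33736479, reverse strand) was measured at 199, 201 and 203 CPM in the control-labelled libraries and at 211, 174 and 167 CPM in the knockout-labelled ones. Knockout replicate 1 was the highest of all 6 and the other knockout libraries the lowest. The log2 fold change was -0.13 (95% interval -0.33 to 0.073, edgeR adjusted p = 0.522). Without knockout replicate 1 it was -0.24 (edgeR adjusted p = 0.0384, in a range of 0.0384 to 0.797 over 17 alternatives). CD59 shares 629 exon bases with ENSG00000284969 on the same strand, which held 71 counts.

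The libraries also differed by the GC content of transcripts, in a way that cut across the labels. Among 4160 loci with a GC content up to 43.4%, the median deviation of log2 CPM from each locus's mean was 0.066 in control replicate 3 and 0.13 in knockout replicate 1, and between -0.074 and -0.029 in the other 4 libraries. Among 4160 loci with a GC content over 53.3%, the same libraries stood at -0.095 and -0.12. CD46, with 37.7% GC, was highest in those libraries, and C3, with 56.5% GC, was lowest in knockout replicate 1. Removing each library's trend lowered the SD of log2 CPM within groups from 0.21 to 0.11 for CD46 and from 0.11 to 0.053 for C3, and by less for C1R, CD55, CD59 and SERPING1. It rose slightly for CFB, from 0.0773 to 0.0789, and for C1S, from 0.213 to 0.217. With the trend removed, the log2 fold change of C1R was 0.54 and that of CFB was -0.24, and CD55 had -0.19 (edgeR adjusted p = 0.157).

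**Figure D2:**
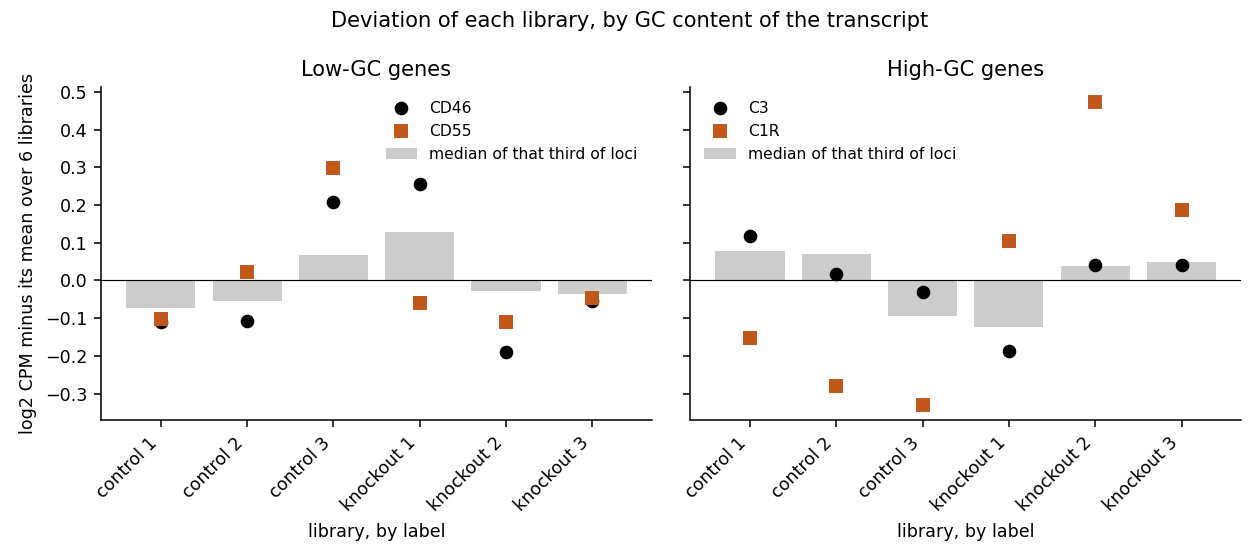
Deviation of log2 CPM from the mean over the 6 libraries (vertical axis), by library. Grey bars are medians over the 4160 loci of lowest (left) and of highest (right) GC content, and points are single genes. CD46 and C3 follow the bars in sign in all 6 libraries. CD55, with 40.8% GC, does not in control replicate 2 and knockout replicate 1, and C1R is negative in all 3 control-labelled libraries and positive in the other 3.

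Levels of different genes were compared per kilobase of exon, with all annotated exons of a gene joined. That length can exceed the transcript in use, by a factor that differs between genes. Transcript lengths were not used, so the order and the shares below hold for these joined lengths only. CD46 was highest among the 9, at 27.8 ± 3.68 CPM per kilobase (SD, n = 6), and C3 followed with 21.1 ± 1.48. CD59 at 18.2 ± 1.69 and CD55 at 17.7 ± 2.02 did not differ beyond their spread, since CD59 was the higher in 4 of 6 libraries. CD46 exceeded C3 in 6 of 6 libraries and C3 exceeded CD59 in 5 of 6. The other soluble components lay lower. CFB stood at 3.07 ± 0.354, SERPING1 at 2.12 ± 0.133, C1R at 1.57 ± 0.349 and C1S at 0.696 ± 0.110 CPM per kilobase. SERPING1 exceeded C1R in 5 of 6 libraries, the exception being knockout replicate 2, and C1R exceeded C1S in 6 of 6. Among the 12352 genes that averaged 1 CPM or more, CD46 lay above 88.2% of them and C3 above 83.3%, while C1R lay above 20.2% and C1S above 10.2%.

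**Figure D3:**
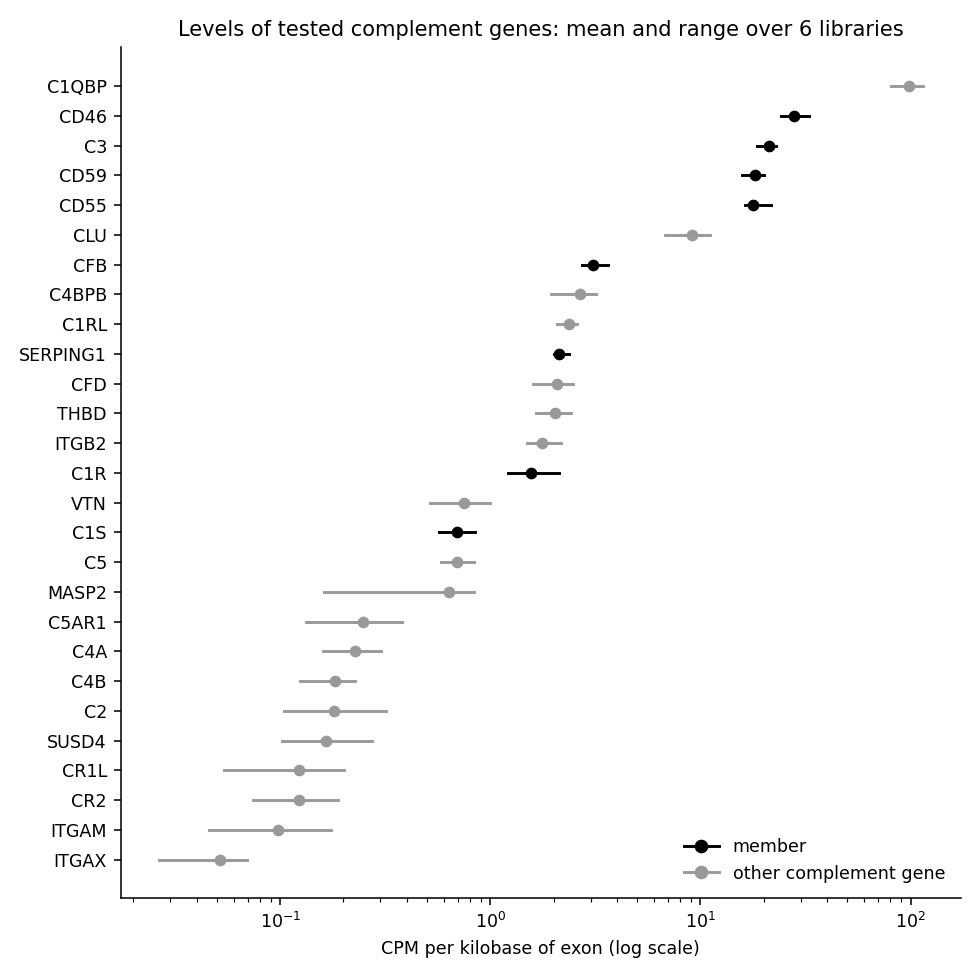
CPM per kilobase of exon (log axis) of the 8 complement genes tested (black) and 19 further complement genes tested (grey), as mean (point) and range (line) over 6 libraries. The membrane regulators and C3 stand above the soluble classical and alternative pathway genes.

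The cascade around these genes was read from a list of 52 further complement genes. Of these, 17 had 0 counts in every library, among them the C1q chains C1QA, C1QB and C1QC, C6, C9 and MASP1, and 19 passed the low-count filter. Transcripts of C1q, the protein to which C1r and C1s bind, were therefore not detected in these libraries. Of the 19, 13 were measured higher and 6 lower, with a median log2 fold change of 0.21, beside 0.0097 over all loci. That median rests in part on genes with few counts, and C4A and C4B enter it separately. Both ends of the range, named after their values were seen, were such genes. They were ITGAM (1.07, mean 0.558 CPM, edgeR adjusted p = 0.266) and SUSD4 (-0.73, mean 0.884 CPM, edgeR adjusted p = 0.248). At an adjusted p under 0.05, 0 of the 19 were higher and 1 lower in edgeR, and at an unadjusted p under 0.05, 4 were higher and 3 lower, where 2.37% and 16.9% of all loci passed. The gene that fell was C1QBP, which encodes a mainly mitochondrial protein first found to bind C1q. C1QBP was measured at 261 ± 9.55 CPM (SD, n = 3) under the control label and at 198 ± 9.09 CPM (SD, n = 3) under the knockout label, with a log2 fold change of -0.40 (edgeR adjusted p = 0.0160). C1QBP was lower in all 3, but it kept an adjusted p under 0.05 in only 2 of 6 fits that each left out a library, those without knockout replicate 1 and without knockout replicate 3, while its log2 fold change stayed between -0.43 and -0.37 in all 6. It shares 101 exon bases with RPAIN on the opposite strand and 22 with DHX33.

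CLU, which encodes clusterin, a secreted inhibitor of the membrane attack complex, was measured at 50.4 ± 7.34 CPM (SD, n = 3) under the control label and at 64.1 ± 5.69 CPM (SD, n = 3) under the knockout label, higher in all 3 (log2 fold change 0.35, edgeR adjusted p = 0.135). C5, which starts the terminal pathway, had a log2 fold change of 0.29 (edgeR adjusted p = 0.270) and THBD, the thrombin cofactor thrombomodulin, one of -0.35 (edgeR adjusted p = 0.205). ITGB2, the beta chain of complement receptors, had 0.21. C4BPB, a chain of C4b-binding protein, had -0.17. CFD, the protease that cleaves factor B, had 0.046 and MASP2, a protease of the lectin pathway, had 0.26. The edgeR adjusted p of these 4 lay between 0.437 and 0.938. When single libraries were left out, the signs of CFD (-0.11 to 0.22) and MASP2 (-0.18 to 0.55) turned. ITGB2 (0.098 to 0.32) and C4BPB (-0.29 to -0.0094) kept their signs over wide ranges. MASP2 stood at 0.822 CPM in control replicate 2 and at 3.14 to 4.29 CPM in the other 5. C2 was measured at 1.05 ± 0.316 CPM (SD, n = 3) under the control label and at 1.53 ± 0.650 CPM (SD, n = 3) in the others. C4A and C4B are near-identical copies whose counts are uncertain.

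**Figure D4:**
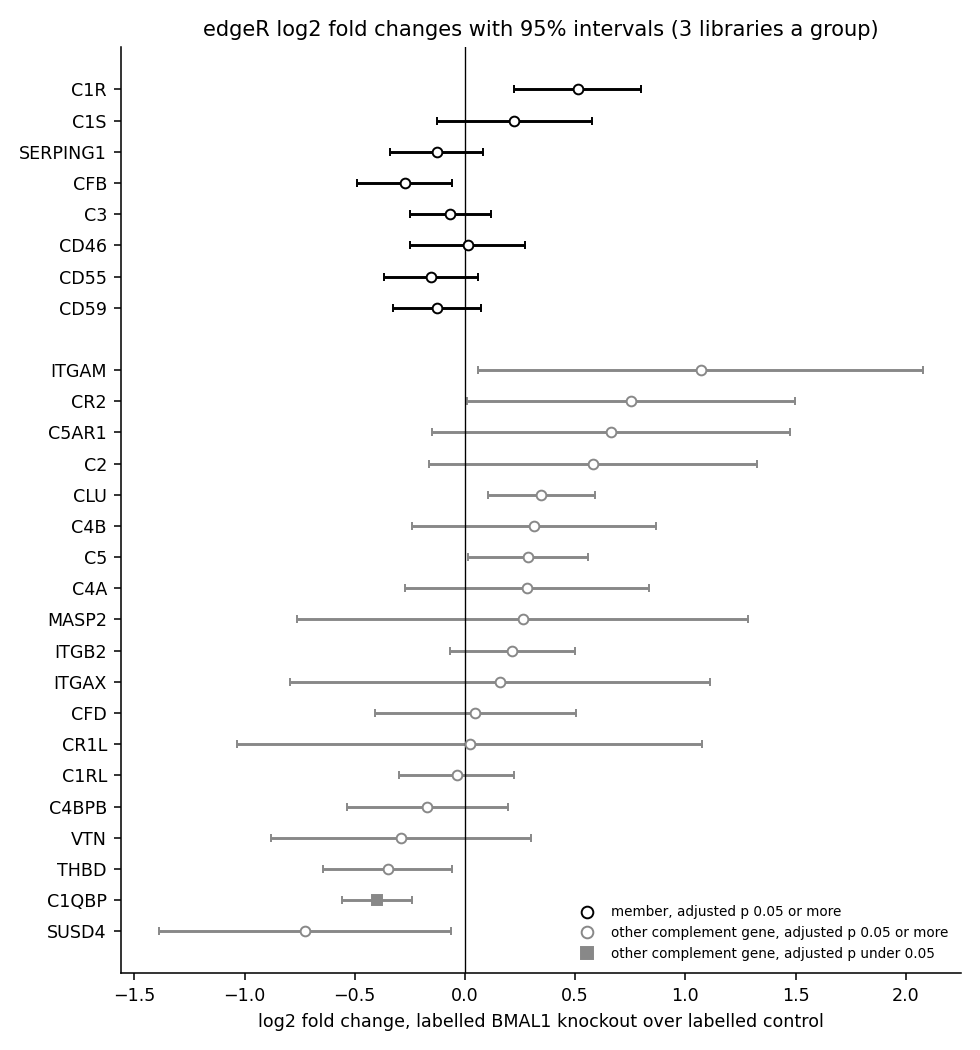
Log2 fold changes, labelled BMAL1 knockout over labelled control, with 95% intervals, of the 8 complement genes tested (black) and 19 further complement genes (grey). Filled squares mark an adjusted p under 0.05 in edgeR, reached by C1QBP alone, and the intervals of C1R and CFB lie on opposite sides of 0.

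CD55 and CD59 are held in the membrane by a GPI anchor, so 28 genes of its synthesis and attachment were read too. All 28 were tested, 15 measured higher and 13 lower, with a median log2 fold change of 0.016. In edgeR 0 had an adjusted p under 0.05, and 3 were higher and 0 lower at an unadjusted p under 0.05, where 16.9% of all loci passed. The 5 most abundant, PIGT, DPM1, PIGK, PIGS and GPAA1, had log2 fold changes between -0.11 and 0.12. When single libraries were left out, the signs of DPM1 (-0.089 to 0.22) and PIGK (-0.079 to 0.17) turned. PIGT (-0.13 to -0.018), PIGS (0.077 to 0.17) and GPAA1 (-0.18 to -0.044) kept theirs.

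The interferon, IL1 and IL6 pathways are known to induce C3, CFB, C1R, C1S and SERPING1. Their receptors, kinases, transcription factors, an adaptor and 2 inhibitors formed a list of 32 genes, 31 of which were tested. Of these 11 were measured higher and 20 lower, with a median log2 fold change of -0.039. In edgeR 0 had an adjusted p under 0.05, while 2 were higher and 4 lower at an unadjusted p under 0.05, where 16.9% of all loci passed. Of the abundant ones, IL6ST, RELA, STAT3 and JAK1 had log2 fold changes of -0.076, -0.15, 0.034 and 0.036. OSMR, the receptor of oncostatin M, had the lowest p of the list and is named after its values were seen. It had a log2 fold change of -0.31 (edgeR adjusted p = 0.0596) and was lower in all 3 knockout-labelled libraries.

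Genes beside the complement genes in the annotation were read too. LPCAT3, within the span of C1S on the opposite strand and with no shared exon, had a log2 fold change of -0.084, and EMG1, the nearest tested gene before C1S, one of -0.17. RBP5, 23196 bases after C1R, had -0.19. NELFE, which begins 1 base after CFB, had 0.17, and ZBTB12 on its other side had -0.53 (edgeR adjusted p = 0.151). GPR108, which overlaps C3 without a shared exon, had -0.12. KIAA1549L, beside CD59, had the lowest p of the neighbours outside the members (log2 fold change -0.53, edgeR adjusted p = 0.119). Among 12351 genes, those whose log2 CPM followed that of C3 most closely over the 6 libraries were NAA60, KLHDC3 and AARS2, with Pearson r of 0.997, 0.994 and 0.993. All 6 points come from libraries that also differ in GC trend and depth, and the values are descriptions.

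The cell type was checked by markers. Of the thyroid follicular genes read, PAX8 was the most abundant, at 92.5 to 151 CPM, and FOXE1 was present at 36.2 to 48.8 CPM. Both were measured lower under the knockout label, PAX8 with a log2 fold change of -0.28 (edgeR adjusted p = 0.263) and FOXE1 with -0.26 (edgeR adjusted p = 0.141), lower in all 3. In contrast, NKX2-1 had 0 counts and TG, TSHR and SLC5A5 had at most 13 counts in any library. The epithelial keratins KRT8, KRT18 and KRT7 were abundant, but EPCAM and CDH1 were at or near 0. The directions of the keratins differed, with log2 fold changes of -0.50 for KRT18 (edgeR adjusted p = 0.00587), -0.28 for KRT8 (0.0517), 0.098 for KRT7 (0.535) and 0.23 for KRT19 (0.406), where 2.37% of all loci had an adjusted p under 0.05. Myeloid cells are a source of complement in tissues. Of 6 myeloid markers 3 were tested, and their directions differed. PTPRC fell from 6.39 ± 0.146 to 2.35 ± 0.341 CPM (SD, n = 3 each; log2 fold change -1.42, edgeR adjusted p = 0.00107), CD68 had a log2 fold change of -0.27 (edgeR adjusted p = 0.294) and CD14, at up to 1.08 CPM, one of 0.97 (edgeR adjusted p = 0.343). The summed CPM of the myeloid list was 19.3, 19.9 and 17.9 in the control-labelled libraries and 14.3, 12.6 and 13.3 in the others, carried by CD68 and PTPRC. C1QA was at 0, LYZ at no more than 5 counts, and CSF1R at 0 in the control-labelled libraries and 4, 5 and 9 counts in the others. In bulk RNA, fewer cells of a type and less RNA per cell cannot be told apart, and the part of these markers in the complement values was not tested. Of the fibroblast markers, COL1A1 was abundant and PDGFRB stood at 18.2 to 23.4 CPM, while COL1A2 had at most 2 counts and DCN and LUM were at 0, and the endothelial list summed to at most 2.07 CPM in any library.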

How the data were processed

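RNA was sequenced by the authors from 6 libraries of HTori-3.1 cells, 3 labelled control and 3 labelled BMAL1 knockout. The authors deposited whole-number counts of reads per locus, not normalized and not pooled. Their notes name fastp 0.20.1, HISAT2 2.0.4 and hg38; the methods assign mapping to fastp and counting to HISAT2. The annotation and strandedness are not given in the sources used here, so overlapping and antisense genes are uncertain. The table holds 22354 loci, 2310 of them assembled from reads, and 20018 matched a GENCODE v44 symbol.

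The counts were compared with edgeR 4.0.16 in R 4.3.3 (TMM, default low-count filter, robust quasi-likelihood fit, two-sided test, Benjamini-Hochberg adjustment over all 14860 loci kept). Before this fit was settled, 10 combinations of dispersion, library-size and quasi-likelihood settings were run on these data. The non-legacy quasi-likelihood setting was kept because it gives the call counts of an earlier analysis of these data, 150 higher and 202 lower. The default of this edgeR version gives 161 and 212. Over the 10 combinations, 0 complement members were called and the adjusted p of C1R lay between 0.0660 and 0.0679. The scripts were tested on simulated data.

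The members and lists were chosen with earlier results of these data known. The genes named are the 9 members and BMAL1; each list's genes with an adjusted p under 0.05 and its most abundant ones (8 complement, up to 5 of each other list); the 3 genes most like C3 over the libraries; and neighbours of members. Others are marked as named after their values were seen, are markers, share exons with a named gene, or were called under an alternative only. C4A and C4B are named as near-identical copies, and some further complement genes for having no counts. Some items withheld for evaluation are not reported here. Single genes were also compared by exact permutation tests (SciPy 1.17.1). Alternatives were other scaling, filters and thresholds, a replicate block, DESeq2 1.42.0, limma-voom (limma 3.58.1), thinning to the smallest total and leaving out each library. Removing GC trends, leaving out assembled loci and the default quasi-likelihood setting were added after the data were seen. CPM per kilobase uses the union of GENCODE exons.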

Additional observations from a re-analysis of the deposited data

How the results depend on the processing

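The log2 fold changes of CFB, C1S, CD55 and SERPING1 kept their direction and an adjusted p over 0.05 in edgeR, limma-voom and DESeq2 under all 17 alternatives run. C1R kept its direction in 17 of 17, and it passed the threshold with DESeq2 (0.51) and with the GC trend removed (0.54); leaving out single libraries gave 0.40 to 0.58, past the threshold without knockout replicate 1. CD59 lay between -0.24 and -0.060 when single libraries were left out, and it passed without knockout replicate 1. C3 lay between -0.11 and 0.0044 and turned positive without knockout replicate 1. CD46 lay between -0.13 and 0.13 and turned negative without control replicate 1, control replicate 2 or knockout replicate 1, and with the GC trend removed (-0.044). BMAL1 kept its direction, at 0.50 to 0.69, and lost the threshold without control replicate 1, control replicate 2, knockout replicate 2 or knockout replicate 3.

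In edgeR 0 members were called, where 2.37% of all loci were, 1 with DESeq2 (4.48% of all loci), 1 with the GC trend removed (7.28%), 1 at an adjusted p under 0.1 (5.05%), and 0 to 2 when single libraries were left out (0.687% to 4.54%). Of the further complement genes 1 was called, 2 with the GC trend removed (C1QBP and CLU) and 0 to 1 when single libraries were left out. Of the cytokine signalling genes 0 were called, 1 with DESeq2 (OSMR), 2 with the GC trend removed (OSMR and IFNAR1) and 0 to 1 when single libraries were left out. Of the GPI anchor genes 0 were called under all alternatives. The cause of these changes was not tested.

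Over all loci, 150 were higher and 202 lower, 507 and 575 with the GC trend removed, 256 and 378 with DESeq2, 323 and 360 without knockout replicate 1, 67 and 75 without control replicate 1, 39 and 65 without control replicate 2, 52 and 78 without control replicate 3, and 57 and 86 without knockout replicate 2. Same-numbered libraries did not deviate together (correlations of -0.12, -0.022 and -0.030, beside -0.086 to 0.12 for libraries of different number). These values show no pairing by number, but so few libraries, which also differ in GC trend and depth, cannot exclude one. With a replicate block, 97 loci were higher and 119 lower, 0 members and 0 further complement genes were called. The edgeR setting chosen over the default of its version changed no call among the members or lists.

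Over all loci, and not for each member, any pair of libraries within a group varied at least 5.41 times as much as counting alone gives.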
